A study of Mus musculus with 8 samples.

Results

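The protein subunits of the mitochondrial ribosome were compared between wild-type (WT) lung endothelial cells and cells whose endothelium had lost QPC, a subunit of respiratory complex III (KO). Members were all protein-coding genes whose symbol starts with Mrpl or Mrps followed by a number, with annotated pseudogenes left out. This gave 78 genes, 49 of the large subunit and 29 of the small subunit by symbol, of 43430 genes in the count table. The table held a row for 77 of them, and 76 passed the filter on low counts, as did 12689 genes in all. Mrpl53 did not pass it, with 14 counts in WT replicate 4, 15 and 8 counts in KO replicates 3 and 4, and 0 in the other libraries. Mrpl33 was not analysed here, because the identifier of the annotation used had no row.

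The ribosome of mitochondria translates the few messenger RNAs of the mitochondrial genome, all of which encode subunits of the respiratory chain or of ATP synthase. Its ribosomal RNAs come from the mitochondrial genome, while every one of its proteins is encoded in the nucleus, made in the cytosol and imported. Some of these proteins have a counterpart in bacterial ribosomes, and others are found in mitochondrial ribosomes alone. Complex III, the complex hit by the deletion, contains 1 product of this ribosome, cytochrome b.

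Both groups were C57BL/6 mice sampled at postnatal day 15, and cells were sorted from the lung by the endothelial surface protein CD31. In KO mice QPC, which is read here as the Uqcrq protein, was deleted by tamoxifen given from postnatal day 0 to day 4. The labels give the same tamoxifen treatment for WT mice. They do not name the promoter that drives the recombinase or say whether WT mice carried it, and do not say that each of the 4 libraries of a group came from a separate animal. The p-values therefore set the difference between the groups against the scatter among these libraries, some of which may be technical. Levels are given as CPM, read counts scaled to one library size with TMM factors, and a gene was called where the quasi-likelihood test of edgeR gave a Benjamini-Hochberg adjusted p under 0.05 over all genes tested.

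Libraries held 6407924 (WT replicate 3) to 13981329 (KO replicate 4) counts, of which the members with a row, Mrpl53 included, took 12268 to 32289. The median per tested member was 141.5 to 374.5. Uqcrq was at 26.3, 24.5, 26.8 and 31.5 CPM in WT and at 1.59, 15.6, 9.57 and 13.97 CPM in KO. The highest KO library was under the lowest WT library, with a log2 fold change of -1.42 ± 0.53 (SE) that was not called (edgeR adjusted p = 0.179). All 6 endothelial markers were tested, with summed levels of 10345 to 12543 CPM in WT and 8571 to 11338 CPM in KO, and Tek and Erg were called lower (named after their values were seen). Markers of alveolar type 2 epithelial cells summed to 3376 to 19899 CPM in WT and 3290 to 14395 CPM in KO, lowest in WT replicate 2 and KO replicate 1, and none of the 5 was called. In WT and KO, alveolar type 1 markers summed to 167 to 462 and 176 to 585 CPM. Airway markers were at 81.1 to 357 and 120 to 522 CPM, and fibroblast markers at 117 to 664 and 143 to 673 CPM. Pericyte and smooth muscle markers were at 29.5 to 267 and 51.6 to 199 CPM. Each of these lists was also lowest in WT replicate 2 and KO replicate 1, and none of their markers was called. The 3 T and NK cell markers summed to 0 CPM in every WT library and 0 to 4.03 CPM in KO, with Cd3g at 0 throughout. The 3 neutrophil markers summed to 0 CPM in WT and 0.375 to 4.59 CPM in KO, with Ly6g at 0 throughout. Other blood cell lists were above 0 in every library. Macrophage markers were at 27.2 to 53.1 CPM in WT and 17.5 to 30.1 CPM in KO. B cell markers were at 0.863 to 21.5 and 8.69 to 20.0 CPM, and platelet markers at 4.04 to 30.9 and 13.2 to 44.8 CPM. Erythroid markers were at 21.4 to 58.8 and 21.3 to 58.3 CPM, and lymphatic endothelial markers at 853 to 2052 and 913 to 1553 CPM. In bulk samples fewer cells of a type and less RNA per cell cannot be told apart.

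Promoter windows from RefSeq (GRCm38.p6), 250 bases before to 50 after the start of a transcript, were found for 69 members, 43 large and 26 small. They are shown first because the members lie on 17 chromosomes and their promoters are where their sequences can be compared. Both strands were searched for the core motifs of factors known for driving nuclear genes of mitochondria, namely nuclear respiratory factor 1 (NRF1, GCGCANGCG), the ETS family (CCGGAAG), which includes GABP, and YY1 (AAGATGGC). The 100 bases before the start are printed for 5 named members chosen because they hold such a match, 5′ to 3′ on the gene's own strand, with the matches to these cores in capitals. The windows are chr7:105811088-105811187 (minus strand) of Mrpl17, the member with the highest fold change, chr11:120484537-120484636 (plus strand) of Mrpl12, chr8:71464826-71464925 (plus strand) of Mrpl34, chr17:46110904-46111003 (plus strand) of Mrps18a and chr9:98601680-98601779 (minus strand) of Mrps22.
Mrpl17: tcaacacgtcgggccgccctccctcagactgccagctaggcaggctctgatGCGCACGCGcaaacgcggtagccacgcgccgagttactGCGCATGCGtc
Mrpl12: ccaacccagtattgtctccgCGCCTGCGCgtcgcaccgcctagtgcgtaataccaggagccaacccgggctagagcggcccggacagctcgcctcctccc
Mrpl34: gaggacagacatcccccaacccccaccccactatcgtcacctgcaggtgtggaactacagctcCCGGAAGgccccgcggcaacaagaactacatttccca
Mrps18a: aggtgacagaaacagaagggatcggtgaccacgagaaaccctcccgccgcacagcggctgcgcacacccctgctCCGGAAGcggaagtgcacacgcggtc
Mrps22: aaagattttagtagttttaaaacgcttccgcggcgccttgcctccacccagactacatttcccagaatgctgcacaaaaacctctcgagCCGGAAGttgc
The Mrpl17 window held 2 NRF1 cores, 49 to 41 and 11 to 3 bases before the RefSeq start, and GENCODE, which starts the gene 12 bases earlier, puts the nearer one in the first exon. Mrpl12 held 1 NRF1 core on the opposite strand, 80 to 72 bases before the start. The ETS core of Mrpl34 lay 37 to 31, that of Mrps18a 26 to 20 and that of Mrps22 11 to 5 bases before the start.

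The NRF1 core was found in 23.2% of the 69 member windows, beside 15.4% of the windows of all genes tested and 7.03% of all 27025 windows of this length. The ETS core was in 37.7% of member windows (20.3% of genes tested, 9.93% of all windows). The YY1 core was in 17.4% (5.29% and 3.19%). At least 1 of these motifs was present in 44 member windows (63.8%, against 35.3% of genes tested). Other motifs were near or below the share of all genes tested: the E-box CACGTG in 7.25% of member windows (11.7% of genes tested, 8.09% of all), the CCAAT box in 39.1% (42.9%, 41.1%), and the ATF4 core TGATGCAA in 0 (0.707%, 1.03%). NRF1 cores were found in 12 of 43 large and 4 of 26 small subunit windows, ETS cores in 15 and 11, and YY1 cores in 6 of each. The median log2 fold change of KO over WT was 0.34 for the 16 tested members with an NRF1 core and 0.25 for the 51 without, 0.32 with and 0.23 without an ETS core, and 0.21 with and 0.28 without a YY1 core. It was 0.77 for the 5 with and 0.26 for the 62 without an E-box, and 0.16 for the 25 with and 0.34 for the 42 without a CCAAT box. A match describes these letters and not a site in use, and these figures were not tested.

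Most transcripts of the mitochondrial ribosome had a slightly higher fitted level in KO, but no single one passed the test. Of 76 tested members 59 (77.6%) had a fold change above 0, where 51.0% of all genes tested did. Their median log2 fold change was 0.29 (quartiles 0.04 and 0.60), a fold of 1.22, while the median of all genes tested was 0.01. For the 6682 tested genes whose mean CPM lay in the range of the members, that median was 0.02 and 51.3% were above 0. The members ranged from -0.90 for Mrpl36 to 1.14 for Mrpl17. The median SE of a single member was 0.37. With the trends on transcript length and GC content removed, the median over members was 0.11, and that of all genes tested -0.097. The plot of fold changes by subunit shows the shift to the right of 0 in both.

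**Figure D1:**
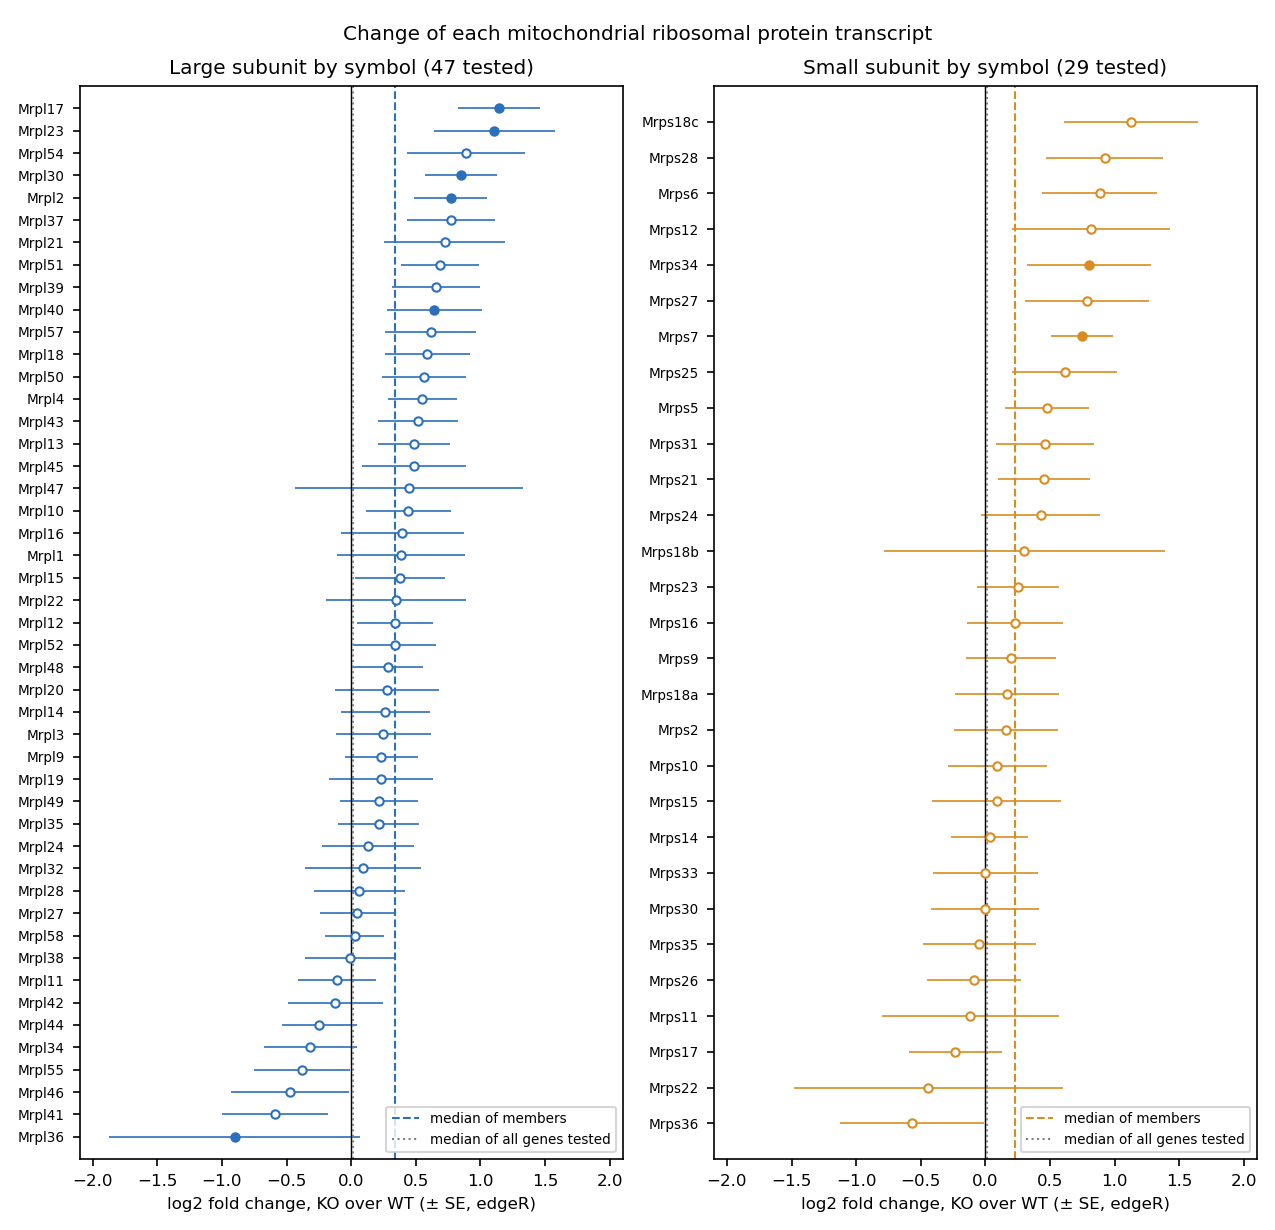
Log2 fold change of KO over WT (x axis) for each tested member (y axis), with its SE from edgeR, large subunit on the left (47 genes) and small subunit on the right (29 genes). Filled points mark members whose 4 KO libraries all lie on one side of all 4 WT libraries. Dashed lines are the medians of the members (0.34 and 0.23) and the dotted line that of all genes tested (0.01).

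With edgeR, 0 of 76 members were called higher (2.25% of all genes tested were) and 0 were called lower (1.39% were), so that 0 were called in either direction against 3.63% of all genes. At an unadjusted p under 0.05, 8 members were higher, 6 large and 2 small, beside 8.69% of all genes, and 0 were lower, beside 6.53%. DESeq2 and limma voom each called 1 of 76 members, Mrpl17, higher, where they called 788 and 497 of 12689 genes in either direction. The libraries did not overlap for 7 members with KO above WT (Mrpl2, Mrpl17, Mrpl23, Mrpl30, Mrpl40, Mrps7 and Mrps34), which is 9.21% of members beside 6.94% of all genes. They did not overlap for 1 member with KO below WT, Mrpl36, beside 4.67% of all genes. Among tested genes in the CPM range of the members, 353 of 6682 (5.28%) stood apart with KO above WT and 243 with KO below. In either direction 8 members stood apart (10.5%, beside 11.6% of all genes). The count became 14 without WT replicate 1 (18.4% of members, 16.4% of all genes), 13 without WT replicate 3 (17.1%, 15.4%) and 13 without KO replicate 1 (17.1%, 16.2%). The share of members was also above that of all genes without KO replicate 2 (15.8%, 14.4%) or KO replicate 3 (14.5%, 13.95%). It was below it without WT replicate 2 (14.5%, 16.2%), WT replicate 4 (14.5%, 15.4%) or KO replicate 4 (13.2%, 14.9%).

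The sums over members were higher in every KO library than in any WT library. For the large subunit they were 1440, 1086, 1257 and 1224 CPM in WT and 1482, 1735, 1468 and 1547 CPM in KO. For the small subunit they were 711, 487, 577 and 699 CPM in WT and 733, 742, 791 and 790 CPM in KO. WT replicate 1 came nearest to the KO libraries and WT replicate 2 was lowest in both subunits. The median log2 deviation of the members from their means over all 8 libraries did overlap between groups. Over all members it was 0.15 in WT replicate 1 and 0.13 in KO replicate 1, and over the large subunit 0.14 and 0.087. For the small subunit WT replicate 1, at 0.17, lay below the lowest KO library, KO replicate 2 at 0.19. Mean sums were 1252 ± 146 (WT) and 1558 ± 123 CPM (KO) for the large subunit (SD, n = 4 each), a ratio of 1.24. They were 619 ± 107 and 764 ± 31.0 CPM for the small subunit, a ratio of 1.23. Since members share their libraries, these sums are a description with no test. WT replicate 2, which had the lowest sums, also had the lowest alveolar type 2 marker level of its group, and KO replicate 1, which had that of KO, had the lowest small and the next to lowest large subunit sum of KO. The part of those cells in the sums was not tested.

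**Figure D2:**
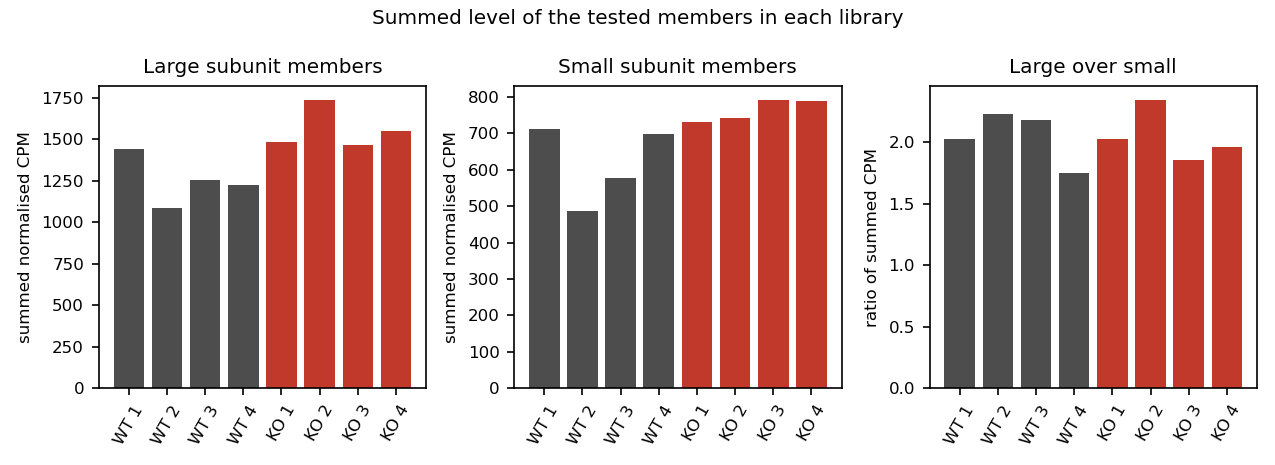
Summed normalised CPM (y axes of the left and middle panels) of the tested large and small subunit members in each library (x axis), and the ratio of the sums (right). All 4 KO bars (red) are above all 4 WT bars (grey) in both subunits, while the ratio runs from 1.75 to 2.23 in WT and from 1.86 to 2.34 in KO.

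Large and small subunits differed by less than the spread between libraries. The median log2 fold change was 0.34 over 47 large and 0.23 over 29 small subunit members, a difference of 0.11. The small subunit median was less stable, at 0.03 with the length and GC trends removed, 0.42 with limma voom and 0.43 with a replicate block. The ratio of large to small summed CPM was 2.03, 2.23, 2.18 and 1.75 in WT and 2.02, 2.34, 1.86 and 1.96 in KO, with means of 2.05 ± 0.22 and 2.04 ± 0.21. The groups overlapped almost fully, and the highest and the lowest ratio fell in KO replicate 2 and WT replicate 4. Measured instead as the median deviation of the members of a library from their means over all 8 libraries, large minus small averaged -0.0048 in WT and -0.089 in KO on the log2 scale, so the sign of the difference depended on the measure. Placing members by structure moves Mrps18a and Mrps30, which sit in the large subunit, and drops Mrps36, which is a component of the 2-oxoglutarate dehydrogenase complex. The medians were then 0.34 and 0.28, a difference of 0.06.

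Proteins with a bacterial counterpart and proteins of mitochondria alone also had like medians. In the large subunit these were 0.34 over 29 members with a bacterial counterpart and 0.41 over 18 without. In the small subunit they were 0.33 over 16 and 0.28 over 10. The share with a fold change above 0 was less alike. It was 86.2% with and 72.2% without a bacterial counterpart in the large subunit, and 87.5% and 60% in the small. Mrps18a and Mrps30 had log2 fold changes of 0.16 ± 0.40 and -0.01 ± 0.42, and Mrps36 had -0.57 ± 0.55. None of the differences among these subgroups was tested.

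Among large subunit proteins with a bacterial counterpart, Mrpl17 (ENSMUSG00000030879), whose promoter is printed above, came closest to a call. The gene spans bases 105803206 to 105811099 of chromosome 7 (GRCm38, minus strand). Its level was 49.1, 15.7, 29.0 and 21.0 CPM in WT and 71.4, 64.9, 50.8 and 66.7 CPM in KO. The lowest KO library lay just above the highest WT library, WT replicate 1. The means were 28.7 ± 14.7 and 63.4 ± 8.86 CPM, and the log2 fold change was 1.14 ± 0.32 (edgeR adjusted p = 0.0582). Of 20 alternatives, 5 called it, with an adjusted p from 0.0102, both with no low count filter and without WT replicate 1, to 0.175 when both WT replicate 3 and KO replicate 1 were dropped.

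Mrpl23, the counterpart of a protein at the mouth of the bacterial exit tunnel, was at 12.1, 4.05, 13.5 and 9.63 CPM in WT and 18.7, 28.0, 20.5 and 17.3 CPM in KO. Mrpl30 was at 22.4, 19.2, 26.6 and 22.3 CPM in WT and 42.6, 52.0, 33.1 and 35.2 CPM in KO. Mrpl2, the counterpart of a protein near the catalytic centre, was at 35.1, 34.1, 25.7 and 16.1 CPM in WT and 45.6, 45.1, 47.0 and 51.8 CPM in KO. In these 3 genes every KO library was above every WT library. Their log2 fold changes were 1.11 ± 0.47 for Mrpl23 (edgeR adjusted p = 0.258), 0.85 ± 0.28 for Mrpl30 (0.121) and 0.77 ± 0.28 for Mrpl2 (0.173), and no alternative called any of them. Mrpl40, which is found in mitochondrial ribosomes alone, was the fifth large subunit member without overlap, at 10.9 to 16.8 CPM in WT and 18.6 to 24.9 CPM in KO, with 0.64 ± 0.37 (0.472).

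**Figure D3:**
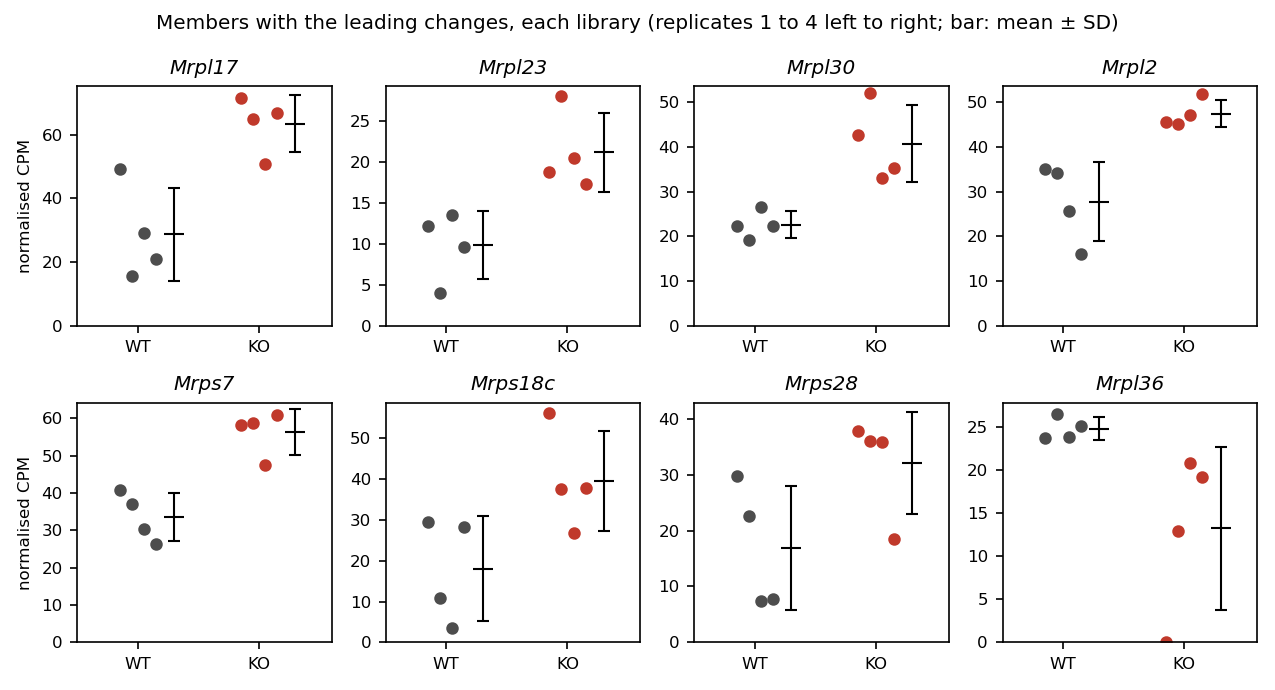
Normalised CPM (y axes) of 8 members in each library, with replicates 1 to 4 from left to right within WT (grey) and KO (red), and the mean ± SD beside them. Mrpl17, Mrpl23, Mrpl30, Mrpl2 and Mrps7 have no overlap between groups with KO higher, Mrps18c and Mrps28 overlap, and Mrpl36 has 0 counts in KO replicate 1.

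Small subunit proteins with a bacterial counterpart were led by Mrps18c, a homologue of the bacterial S18 protein. It was at 29.5, 10.96, 3.44 and 28.2 CPM in WT and 56.1, 37.6, 26.7 and 37.7 CPM in KO. KO replicate 3 fell inside the WT range, and WT itself spanned 3.44 to 29.5 CPM. The log2 fold change was 1.13 ± 0.52 (edgeR adjusted p = 0.325), and it was 0.58 when both WT replicate 3 and KO replicate 1 were dropped. Mrps7, which in bacteria is among the first proteins to bind the rRNA of the small subunit's head, was at 40.7, 37.1, 30.3 and 26.4 CPM in WT and 58.3, 58.8, 47.4 and 61.0 CPM in KO. Its groups did not overlap, and its fold change was smaller but more precise at 0.74 ± 0.24 (0.109). Mrps12, the counterpart of the decoding protein S12, was at 18.4, 9.92, 2.99 and 21.8 CPM in WT and 4.87, 31.4, 25.003 and 32.7 CPM in KO. Its 0.82 ± 0.61 (0.641) had 3 KO libraries above all WT libraries and KO replicate 1 below 3 of them. Mrps6 had 0.88 ± 0.45 (0.376), with overlap. Mrps28, of the same class, was at 29.7, 22.7, 7.33 and 7.74 CPM in WT and 37.7, 36.1, 35.8 and 18.5 CPM in KO. KO replicate 4 stood below the other KO libraries and inside the WT range, and the log2 fold change was 0.92 ± 0.45 (edgeR adjusted p = 0.359).

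Of small subunit proteins of mitochondria alone, Mrps34, whose loss destabilises the small subunit and causes disease in people, was at 6.02, 12.6, 9.12 and 10.5 CPM in WT and 16.6, 14.6, 20.3 and 15.3 CPM in KO. It was the other small subunit member without overlap, at 0.80 ± 0.48 (0.502). Mrps27, a pentatricopeptide repeat protein, had 0.79 ± 0.48 (0.513), with KO replicate 1 at 9.08 CPM and the other KO libraries at 21.6 to 23.7 CPM. In the large subunit Mrpl54 had 0.89 ± 0.46 (0.392) and Mrpl37 had 0.77 ± 0.34 (0.283), and their groups overlapped.

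The members at the lower end were not called either. Mrpl36, the counterpart of a small bacterial protein, had 284, 308, 160 and 306 counts in WT and 0, 166, 264 and 266 counts in KO, where a count of 0 allows up to 3. Its 3 other KO libraries were at 12.995, 20.9 and 19.3 CPM, all below the lowest WT library at 23.8 CPM. The fitted log2 fold change of -0.90 ± 0.97 (edgeR adjusted p = 0.808) was -0.49 without KO replicate 1 (0.664). Mrpl41, found in mitochondrial ribosomes alone, was at 35.6, 13.8, 45.0 and 25.1 CPM in WT and 12.2, 28.3, 25.2 and 13.6 CPM in KO, with -0.59 ± 0.41 (0.604) and groups that overlapped. Mrpl46 had -0.47 ± 0.45 (0.762), Mrpl55 -0.38 ± 0.37 (0.764), Mrps17 -0.23 ± 0.36 (0.880) and Mrps11 -0.12 ± 0.69 (0.982). Mrps22, mutated in a human mitochondrial disease, was at 13.8, 0, 28.0 and 27.4 CPM in WT and 13.6, 9.79, 15.4 and 12.0 CPM in KO, with -0.44 ± 1.04 (0.930), and over 20 alternatives the value ran from -0.86 without WT replicate 2 to 1.66 with limma voom, above 0 in 2 of them.

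Mrpl46 and Mrps11, 1 protein of each subunit, lie back to back on chromosome 7, from 78775236 to 78783531 and from 78783119 to 78792989, and their 5′ ends overlap. Mrpl46 was at 7.61, 19.8, 32.7 and 38.7 CPM in WT and 11.4, 17.7, 20.4 and 21.6 CPM in KO. Mrps11 was at 12.0, 1.12, 36.5 and 26.9 CPM in WT and 16.6, 13.5, 18.2 and 22.2 CPM in KO. In WT both were highest in replicates 3 and 4, and KO was less spread for both. Over 20 alternatives the Mrps11 log2 fold change ran from -0.51 to 0.95. Its sign turned in 6 of them, among them the fit without WT replicate 3, at 0.40. In all, 28 of 78 members have an exon that overlaps an exon of a gene on the other strand, and no source used here states the strand setting of the counting, so reads of such pairs cannot be told apart.

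Several members start close to a neighbour on the other strand. Of 78 members, 18 (23.1%) start head to head with a protein-coding gene within 1000 bp, where 10.1% of 12102 tested protein-coding genes do, a difference that was not tested. Only partners that start outside the gene were counted, so pairs that overlap at their starts, such as Mrpl46 and Mrps11, are left out. Some partners, picked here for their roles, belong to translation or to mitochondria themselves, and others such as Klc4, Hira, Zfp189 and Ncapd2 do not. The share of such roles was not compared with that of other genes. Mrps12 starts 172 bp from Sars2, the mitochondrial seryl-tRNA synthetase, Mrpl49 starts 59 bp from Fau, which encodes a cytosolic ribosomal protein, and Mrps27 starts 81 bp from Ptcd2. Of the members without overlap between groups, Mrpl2 (207 bp from Klc4), Mrpl30 (66 bp from Mitd1), Mrpl40 (175 bp from Hira) and Mrps34 (29 bp from Eme2) are in such pairs. Mrpl17, Mrpl23, Mrps7 and Mrpl36 are not in a pair so counted. Exons of Mrps7 overlap exons of Gga3 and Mif4gd on the other strand, and exons of Mrpl36 overlap those of Ndufs6.

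Per length of exon, the most abundant large subunit transcripts were Mrpl34 at 44.0, Mrpl27 at 38.3 and Mrpl12 at 34.4 CPM per kb, as means over all 8 libraries. In the small subunit they were Mrps21 at 40.5, Mrps28 at 31.2 and Mrps18c at 26.7 CPM per kb. Mrpl12 forms the flexible stalk that recruits translation factors, and its level was 53.4, 27.2, 57.6 and 47.9 CPM in WT and 89.9, 45.7, 54.9 and 44.7 CPM in KO. Only KO replicate 1 stood above the WT range, and the log2 fold change was 0.34 ± 0.29 (edgeR adjusted p = 0.713). Mrpl34 had -0.31 ± 0.36 (0.815), Mrpl27 0.05 ± 0.29 (0.983) and Mrps21 0.45 ± 0.36 (0.670). In the large subunit the most abundant members per length were not those with the leading fold changes. In the small subunit Mrps18c and Mrps28, among the most abundant, had the highest log2 fold changes, 1.13 and 0.92. Mrpl11, at the base of the stalk, had -0.11 ± 0.30 (0.942), and Mrpl44, which is mutated in a human heart muscle disease, had -0.25 ± 0.29 (0.828).

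The spread between libraries of a group was larger in WT than in KO. The SD of log2 CPM over the 4 libraries had a median over members of 0.57 in WT and 0.34 in KO, and it was larger in WT for 56 of 76 members (73.7%). Over all genes tested it was larger in WT for 63.9%. WT replicate 3 had the lowest total count, 6407924, beside 11607842 to 11951816 in the other WT libraries, and it held 2 of the 4 member values at 0, those of Mrpl47 and Mrps18b. The others were Mrps22 in WT replicate 2 and Mrpl36 in KO replicate 1. Of all genes tested 12.05% were at 0 in WT replicate 3, 10.3% in KO replicate 1 and 1.42% to 6.08% in the others.

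**Figure D4:**
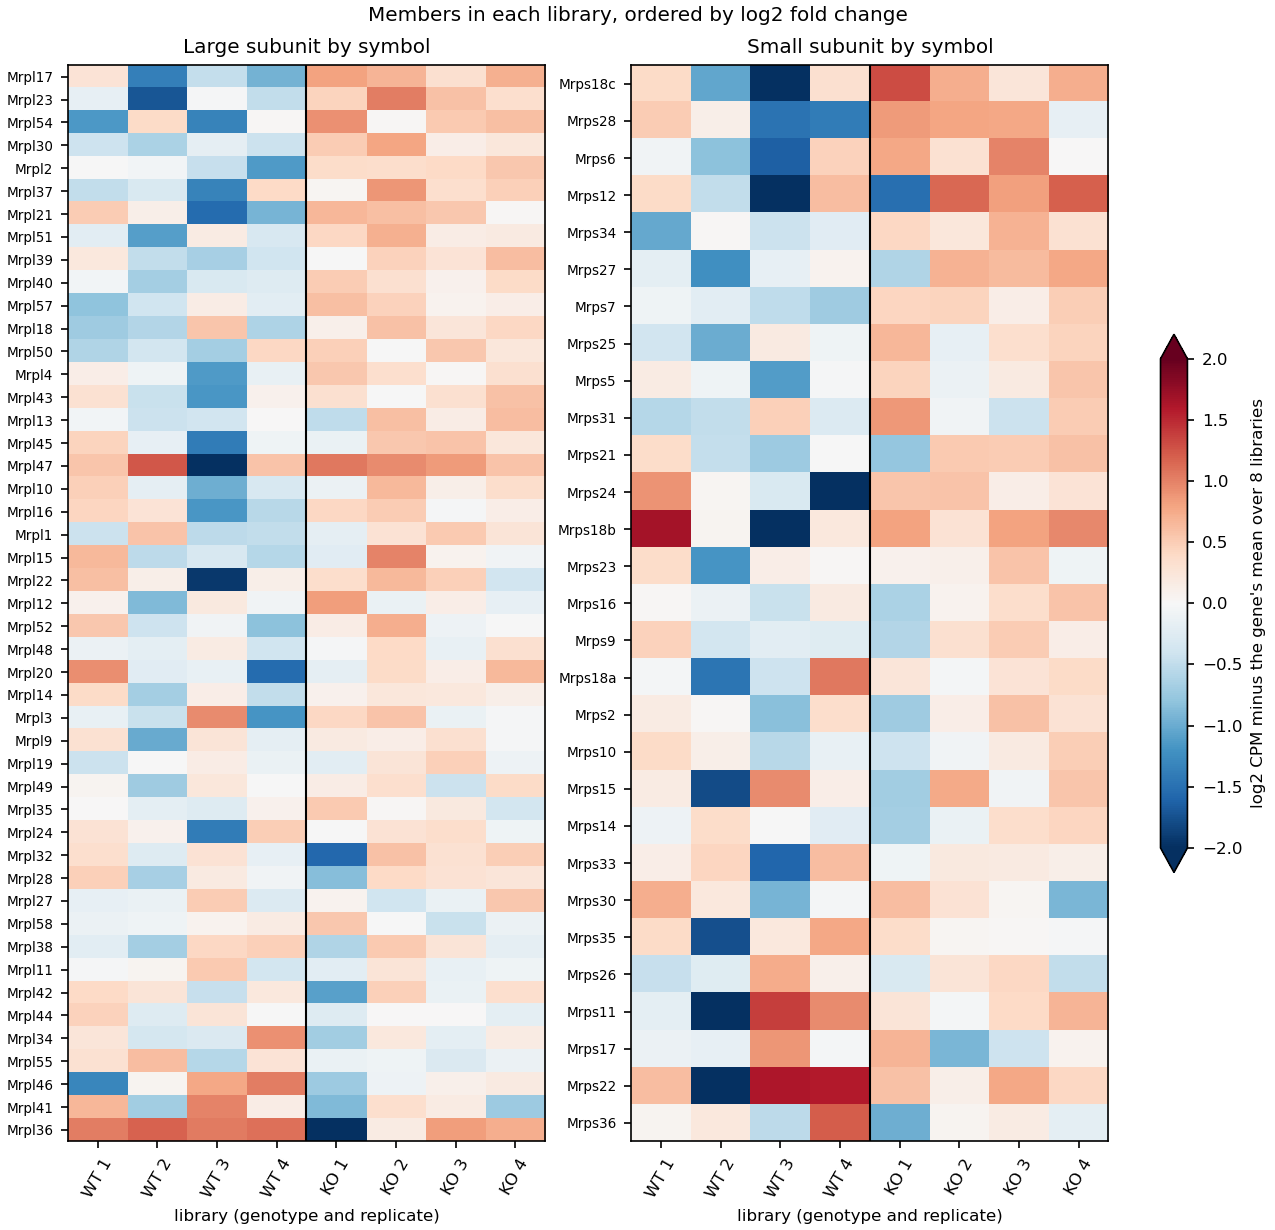
Log2 CPM of each tested member (rows, ordered by fold change) in each library (columns), minus the gene's mean over the 8 libraries, with large subunit members on the left and small subunit members on the right. Values past 2 in either direction take the end colour. Blue cells gather in WT replicates 2 and 3 of the upper rows, and single dark cells mark members at or near 0 counts, such as Mrpl36 in KO replicate 1 and Mrps22 in WT replicate 2.

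Other parts of the mitochondrial translation system were compared in the same fit. Of 5 mitoribosomal proteins without an Mrp symbol 0 were called by edgeR, with a median log2 fold change of 0.50. The highest was Dap3, a GTP-binding protein of the small subunit, at 29.8, 29.9, 3.74 and 31.4 CPM in WT and 43.2, 57.3, 48.5 and 66.6 CPM in KO. Its groups did not overlap, and the 1.18 ± 0.48 (edgeR adjusted p = 0.250) was 0.83 without WT replicate 3. Of 20 alternatives 1 called it, edgeR's newer quasi-likelihood option (adjusted p = 0.0411). Chchd1 and Aurkaip1 had 0.67 ± 0.35 (0.394) and 0.50 ± 0.28 (0.465), with overlap.

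Of 28 genes of mitoribosome assembly and rRNA modification 0 were called, and their median log2 fold change was 0.10. Those with the smallest p were Eral1, a chaperone of the small rRNA, at 0.85 ± 0.44 (edgeR adjusted p = 0.397), the GTPase Gtpbp10 at 0.70 ± 0.38 (0.447) and Noa1 at 0.78 ± 0.45 (0.466). Of 15 translation factors and mRNA-binding proteins of mitochondria 0 were called either, with a median of 0.13. Lrpprc, which stabilises mitochondrial mRNAs together with Slirp, was at 34.4, 20.1, 36.3 and 31.8 CPM in WT and 50.01, 43.6, 67.7 and 48.8 CPM in KO, with no overlap, at 0.78 ± 0.27 (0.139). Slirp had 0.46 ± 0.36 (0.660), and the elongation factor Gfm1 had 0.68 ± 0.31 (0.309). At an unadjusted p under 0.05, 1, 0 and 2 genes of these lists were higher and 0 were lower.

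The messages that this ribosome translates were higher in part. Of the 13 protein genes of the mitochondrial genome 3 were called higher and 0 lower, beside 2.25% and 1.39% of all genes tested. The median log2 fold change was 0.41. Some of the 13 had few counts, with mt-Co3, mt-Nd4l and mt-Nd3 at WT means of 0.801, 3.05 and 3.85 CPM. Their log2 fold changes of 1.82 ± 1.83, 0.24 ± 1.34 and 0.69 ± 1.26 enter the median. WT means of mt-Co2 and mt-Atp6 were 13.3 and 24.2 CPM, beside 1335 CPM for mt-Atp8 and 7860 CPM for mt-Co1. Why levels differ so widely within this list was not tested, and counts here may not give the amount of each message. The 3 called were mt-Co1 at 0.60 ± 0.13 (edgeR adjusted p = 0.0175), mt-Nd1 at 0.53 ± 0.12 (0.0253) and mt-Nd2 at 0.48 ± 0.12 (0.0309), of complex IV and complex I. These calls held in 14, 12 and 9 of 19 alternatives, and with the trends on transcript length and GC content removed the adjusted p of mt-Co1 was 0.473. For mt-Co1 the call also ended without WT replicate 2 (0.0666), without WT replicate 3 (0.0707), without KO replicate 2 (0.0541) and when both WT replicate 3 and KO replicate 1 were dropped (0.115). Of the rRNAs in the ribosome itself, mt-Rnr1 of the small subunit was at 1637, 1117, 1041 and 1425 CPM in WT and 2552, 5074, 1935 and 2356 CPM in KO. Its groups did not overlap, at 1.19 ± 0.30 (0.0699). Of 19 alternatives 4 called it, DESeq2 (0.0250), limma voom (0.0107) and the fits without KO replicate 2 (0.0116) or KO replicate 3 (0.0408). For mt-Rnr2 of the large subunit the value was -0.09 ± 0.17 (0.909), with overlap.

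Cytosolic ribosomal proteins differed from their mitochondrial namesakes in how many passed. Of 87 such genes 80 were tested, 58 were called higher and 0 lower, and their median log2 fold change was 0.65, beside 0 of 76 and 0.29 for the members. Rps2 had 1.36 ± 0.12 (edgeR adjusted p = 3.16e-05) and Rpl12 1.15 ± 0.15 (0.000460). Processed copies of these genes may share their reads. The median SE was 0.14 for cytosolic and 0.37 for mitochondrial ribosomal proteins, at 371 and 24.9 CPM per gene, so fold changes of 1 size are known more closely in the former. The difference between both lists was not tested.

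**Figure D5:**
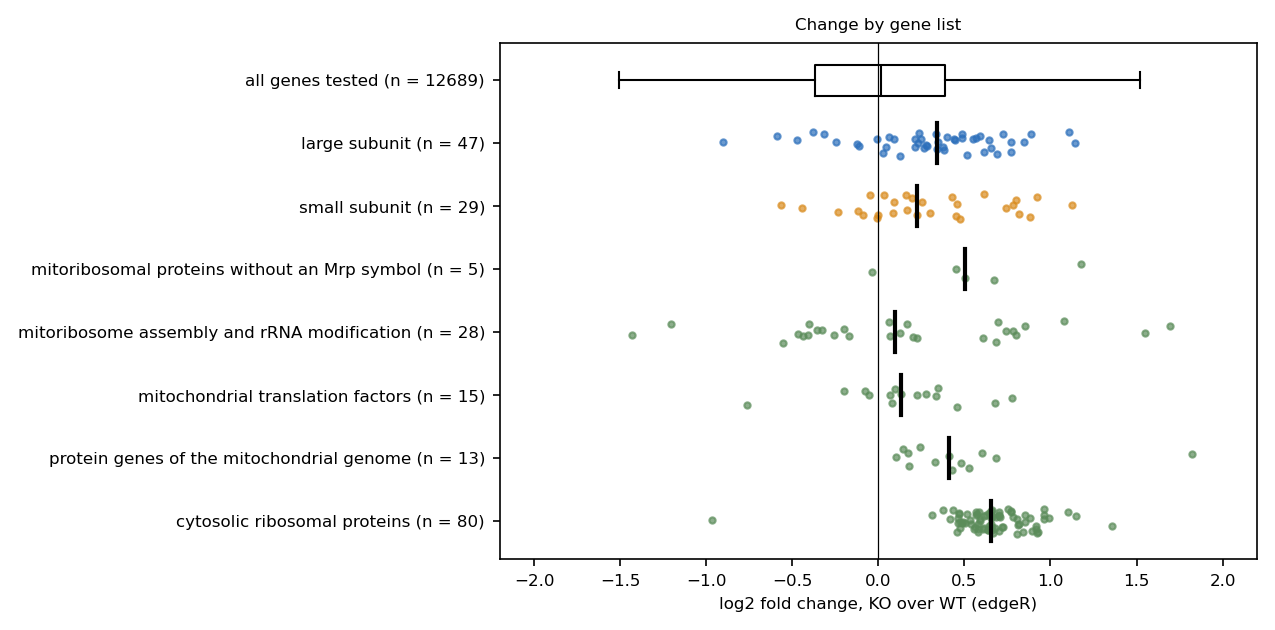
Log2 fold change of KO over WT (x axis) by gene list (y axis). Each point is a gene and each black bar a median, 0.34 for the large and 0.23 for the small subunit and 0.65 for cytosolic ribosomal proteins, and the box gives the quartiles of all genes tested with whiskers to 1.5 times the distance between them.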

How the data were processed

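RNA-seq was analysed in 4 WT and 4 KO libraries, grouped by the sample titles. The authors deposited a table of whole-number read counts for each gene and library. The submitters' processing notes list TopHat, HTSeq, bcl2fastq and edgeR, with no versions, and the build mm10. The annotation release and strand setting were not given in the sources used here. Symbols, biotypes and coordinates came from GENCODE M21 (GRCm38, the build called mm10), and genes without a symbol took 0.0792% to 0.100% of the counts.

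After filterByExpr (minimum count 10 and total 15) 12689 genes were left and scaled by TMM. Genotypes were compared with edgeR 4.0.16 (R 4.3.3), using its quasi-likelihood F test (robust fit, genotype alone) and Benjamini-Hochberg adjustment at 0.05. The SE was derived from the F statistic, and fitted changes of genes at 0 in a library depend on the prior count. The pipeline was tested on simulated data. Libraries of a group differed by a chi-square per degree of freedom of 35.2 to 80.3, so none was a duplicate. Depth limits members to a median of 141.5 to 374.5 counts per library, and no molecular identifiers are described. Motifs were searched in RefSeq promoter windows.

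The members, lists and motifs were chosen with earlier results of these data known. Genes named were Uqcrq, in each subunit the 6 highest and 4 lowest fold changes with a mean of at least 5 CPM, the 3 highest levels per length, members whose place by structure differs from the symbol, 5 with roles used for ordering, members not tested, and up to 3 genes per companion list, of which 1 is not reported here. Mrps7, Mrpl40, Mrpl47, Mrps18b and members in divergent pairs were named after their values were seen. Alternatives were RLE, upper quartile and total scaling, no or a stricter filter, DESeq2 1.42.0, limma voom 3.58.1, edgeR's newer quasi-likelihood option, the replicate number as a block, removal of mitochondrial and haemoglobin genes, removal of trends on length and GC content, and each library left out. Dropping both WT replicate 3 and KO replicate 1 was an alternative chosen after seeing the data.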

Additional observations from a re-analysis of the deposited data

Results flagged for a closer look

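Of 106 groups of 4 libraries checked, 10 had a library far from the other 3, by a rule that chance meets in about 1 of 20 groups. Among members these were Mrpl27 in WT replicate 3 at 52.2 CPM (30.5 to 33.5 CPM in the other WT libraries), Mrps17 in WT replicate 3 at 61.3 CPM (29.5 to 32.02 CPM), Mrps28 in KO replicate 4 at 18.5 CPM (35.8 to 37.7 CPM), Mrps27 in KO replicate 1 at 9.08 CPM (21.6 to 23.7 CPM) and Mrps21 in KO replicate 1 at 16.2 CPM (40.0 to 42.0 CPM). Companion genes were Dap3 in WT replicate 3 at 3.74 CPM, Chchd1 in WT replicate 3 at 27.7 CPM and Eral1 in KO replicate 3 at 12.4 CPM.

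The difference between the median deviations of large and small subunit members was 0.19 in KO replicate 2 on the log2 scale, beside -0.17 to -0.19 in the other KO libraries. The total count of WT replicate 3, 6407924, lay below those of the other WT libraries. WT replicate 3 accounts for 5 of the 10 cases and KO replicate 1 for 2.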

How the results depend on the processing

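The medians of both subunits stayed above 0 in all 20 alternatives. With trends on length and GC content removed they were 0.15 for the large subunit, 0.03 for the small and 0.11 for all members, on the log2 scale, while the median of all genes moved to -0.097, and 5 members had groups that did not overlap (6.58%, beside 8.91% of all genes). No member was called lower in any alternative. The number called higher was 1 with no low count filter, with DESeq2, with limma voom and with edgeR's newer quasi-likelihood option, Mrpl17 each time, and 0 to 1 with each library left out. Leaving out 1 library gave medians of 0.24 to 0.46 (large), 0.16 to 0.34 (small) and 0.23 to 0.43 (all), and 10 to 14 members without overlap (13.2% to 18.4% of members, beside 13.95% to 16.4% of all genes). When both WT replicate 3 and KO replicate 1 were dropped 18 did not overlap (23.7%, beside 22.05% of all genes), and 0 were called.

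The large minus small difference was -0.043 with limma voom and ran from -0.013 to 0.22 with each library left out. The count of all genes called, 461, was 788 with DESeq2, 747 with the newer option and 162 with the length and GC trends removed. It was 497 with limma voom, 630 of 18490 genes with no low count filter, and 422 without WT replicate 1. Replicate numbers did not pair the samples (correlations from -0.10 to 0.0044), and with the replicate block the medians were 0.44 (large), 0.43 (small) and 0.43 (all), the difference was 0.0097, and 0 members were called. Median counts per member of 141.5 to 374.5 limit the precision of each, beside a biological coefficient of variation of 63.5% between libraries.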
